A study of Drosophila melanogaster with 6 samples.

Results

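The odorant-binding protein (OBP) family was examined in whole male flies after courtship, leaving out Obp99b. Its members were the probe sets annotated to exactly 1 gene whose current symbol begins with Obp, together with lush (Obp76a). This rule found 35 genes, each with 1 probe set, among the 14010 probe sets of the array and the 10844 genes that have a probe set of their own. The RefSeq gene table (Release 6) lists 52 genes of the family, Obp99b included. Of these, Obp50b, Obp50c and Obp57d share a probe set with another gene, and Obp22a, Obp49a, Obp50a, Obp50d, Obp51a, Obp56b, Obp56f, Obp56i, Obp57a, Obp57b, Obp57e, Obp83a and Obp83g have no probe set under the annotation used; these genes are not analysed here. Of the 35 members, 16 lie on chromosome arm 2R, 9 on 3R, 6 on X, 3 on 3L and 1 on 2L.

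Courtship-exposed males were virgin Canton-S males that had spent 5 min with a virgin female, courted robustly and did not mate. Unexposed males were virgin Canton-S males given a mock transfer and no female. Canton-S is a common wild-type stock, and all males were 4 days old. Each of the 3 exposed and 3 unexposed arrays (Affymetrix Drosophila version 1) was hybridized with RNA from 1 pool of about 12 whole males. Exposed males were chosen for their courtship and the unexposed males were not screened in that way as far as the methods say, so exposure and this choice cannot be told apart. Exposed and unexposed arrays that carry one replicate number (1 to 3) were paired, and signals and ratios below are listed in that order. The values are signals on a linear intensity scale, 1 per probe set and array.

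OBPs are small secreted proteins that bind hydrophobic molecules. In insect sensilla, support cells release them into the fluid that bathes the dendrites of chemosensory neurons, where they carry, buffer or remove odorants and pheromones. Cysteines that form disulfide bonds hold the fold together. Plus-C members have additional conserved cysteines and Minus-C members have lost a pair of them. Many OBPs are made outside sense organs too, and several reach the female in the seminal fluid.

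The arrays of replicate 1 stood apart from the other 4 before any comparison of treatments. Per the methods, RNA was labelled and hybridized by a core facility of the University of Kentucky or of Texas A&M University. Which arrays were run at which site is not given, so a difference of site cannot be placed. The median of 23 probe sets for bacterial, yeast and mouse sequences (foreign controls) reached 80.1 for exposed 1 and 81.0 for unexposed 1, while the remaining arrays had 22.9 to 31.3. The 3′ to 5′ signal ratio of GAPDH, a control of RNA integrity, was 5.80 for exposed 1 and 1.93 for unexposed 1, and elsewhere 1.30 to 1.52. That of actin was 17.8 for exposed 1 and 5.79 for unexposed 1, and elsewhere 2.19 to 2.36, and that of eIF-4a was 11.3 for exposed 1, 1.9996 for unexposed 1 and 1.65 to 1.95 elsewhere. Values listed at exactly 0 numbered 364 for exposed 1 and 195 for unexposed 1, and 49 to 81 elsewhere. The sums over 6 accessory gland markers were 19161 to 20168 in exposed and 18273 to 20809 in unexposed pools, and 4 of 5 testis markers passed the detection threshold used below, as did 0 of 4 antennal markers (Orco, Or22a, Or67d and Snmp1). The flight muscle markers fln and TpnC4 were higher in the exposed pool of every pair, with mean log2 ratios of 0.23 and 0.18. The eye marker trp was lower in every pair, with a mean of -0.28. The other markers measured for these tissues had mixed signs. Act88F of flight muscle had log2 ratios of 0.19, -0.32 and 0.21, and Arr2 of the eye had -0.19, -0.05 and 0.05. Over all probe sets past the detection threshold, 6.23% were higher and 18.4% lower in the exposed pool of every pair. None of fln, TpnC4 and trp had an unadjusted p under 0.05 (limma). The mean log2 ratios of Obp19d, Obp56g and Obp28a below were 0.15, 0.12 and -0.26, and a link to these markers was not tested. Of 6 eggshell genes, which males should not express, 4 passed the detection threshold as well. The eggshell gene Cp38 had signals of 2032, 498 and 432 in exposed pools and 1933, 483 and 391 in unexposed pools. A signal past the threshold therefore need not come from the named transcript. The part of these differences in the results below was not tested.

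A gene was called detected when its signal reached 100 on at least 3 of the 6 arrays, the filter given in the study's methods. Of the 35 OBP genes 18 were detected, or 51.4%, against 59.1% of the 13966 probe sets that are not controls. The detected genes were Obp18a, Obp19a, Obp19b, Obp19d, Obp28a, Obp44a, Obp46a, Obp50e, Obp56a, Obp56d, Obp56e, Obp56g, Obp57c, Obp58b, Obp69a, Obp83b, Obp99a and Obp99c. Of these, 12 reached 100 on all 6 arrays and 6 on 4 or 5 arrays. In each of the 6 the arrays under 100 were those of replicate 1. The detected members nearest the threshold were Obp19a and Obp56e, whose third-highest signals were 132 and 169. Those just below it were Obp8a and Obp93a, with third-highest signals of 87.8 and 87.4. Whole-body RNA holds every organ, so fewer cells of one type and less RNA per cell cannot be told apart.

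**Figure D1:**
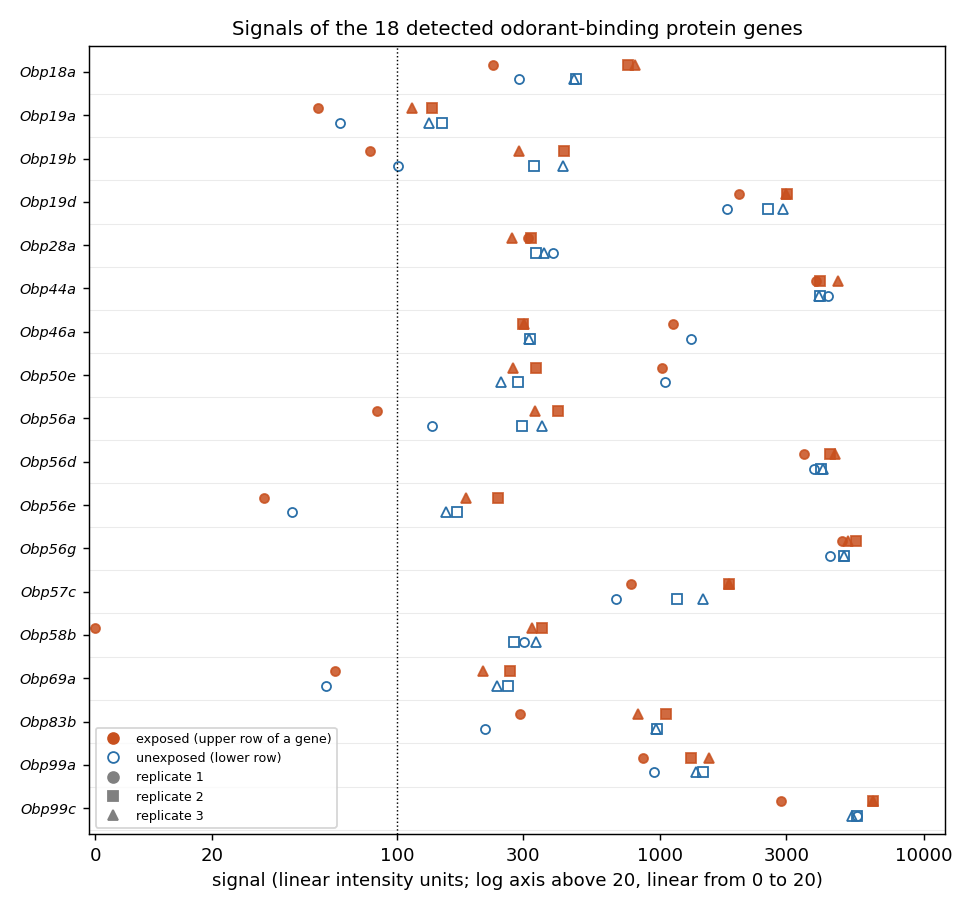
Signals of the 18 detected genes on the 6 arrays, on a log axis above 20, with exposed arrays in the upper row of each gene and unexposed arrays in the lower row; symbols give the replicate and the dotted line is the threshold of 100. For Obp69a both replicate 1 arrays, at 58.4 and 54.1, lie left of the other 4, whereas for Obp46a both lie right of them; positions of different genes are not comparable levels.

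No OBP gene differed between exposed and unexposed males at a Benjamini-Hochberg adjusted p under 0.05 (limma, with a block for the replicate). The lowest adjusted p among the 18 tested members was 0.905. At an unadjusted p under 0.05, 1 member was higher in exposed males, Obp57c, and none was lower. Over all 8251 probe sets tested, 0.376% were higher and 2.12% lower by that measure, and none passed the adjustment. The median log2 ratio of exposed over unexposed was 0.01 over the 18 members, against -0.09 over all probe sets tested. For 16 of the 18 the 95% interval from limma lay within a 2-fold difference in either direction. The exceptions were Obp18a, with an interval on the log2 scale of -0.31 to 1.04, and Obp58b, with -7.52 to 2.21. With 3 pools a group, p-values are based on the spread of the ratios between pairs of pools, not of single flies. limma draws each gene's spread toward one common to all probe sets tested, so standard errors and p-values depend partly on other probe sets.

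Obp57c (CG13421) encodes an OBP of the taste organs. Its signals were 776, 1822 and 1820 in exposed pools and 679, 1159 and 1448 in unexposed pools. Each exposed pool was higher than its unexposed partner, though the exposed and unexposed ranges overlapped because both replicate 1 arrays were low. The log2 ratios were 0.19, 0.65 and 0.33 in pairs 1 to 3, with a mean of 0.39 (standard error 0.15, adjusted p = 0.905 from limma). On the linear scale this is a mean 1.31-fold difference, with a 95% interval on the log2 scale of 0.00 to 0.78. The unadjusted p was 0.0496, and it was above 0.05 with no replicate block, with no filter on signal, and without replicate 2 or replicate 3.

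Obp19d (Pbprp2), an OBP of antennae and taste organs, likewise had the higher signal in its exposed pool in all 3 pairs. Its signals were 1990, 3024 and 2988 in exposed pools and 1782, 2548 and 2914 in unexposed pools, giving a mean log2 ratio of 0.15 (standard error 0.12). The pair 3 ratio was 0.04, so that pair scarcely separated. Obp56g, which encodes a seminal fluid protein needed for the mating plug, was the third such gene, with 4892, 5529 and 5119 in exposed pools and 4397, 4969 and 4984 in unexposed pools. Its log2 ratios, 0.15, 0.15 and 0.04, had the smallest spread of the 18 members (SD 0.07, n = 3 pairs), and the mean was 0.12 (standard error 0.12). These 3 genes of 18 compare with 6.23% of all probe sets tested that were higher in all 3 pairs. In none of the 18 was every exposed array above every unexposed array, which was so for 0.255% of probe sets.

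The OBP genes whose exposed pool was the lower in all 3 pairs were Obp19a, Obp28a and Obp46a, 3 of 18, against 18.4% of all probe sets tested. Obp28a (Pbprp5), an abundant antennal OBP, had signals of 315, 323 and 273 in exposed pools and 393, 337 and 363 in unexposed pools. Every exposed pool was thus below every unexposed pool, the only detected member for which the groups did not overlap, and this held for 1.76% of probe sets. The narrowest gap was that between 323 on exposed 2 and 337 on unexposed 2. Its mean log2 ratio was -0.26 (standard error 0.14, adjusted p = 0.905 from limma), and the 95% interval, -0.62 to 0.10, held 0.

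Obp19a, an antennal OBP, had 50.2, 136 and 115 in exposed pools and 60.9, 149 and 132 in unexposed pools. Its log2 ratios of -0.28, -0.13 and -0.20 were close to each other (SD 0.08, n = 3 pairs), with a mean of -0.20 (standard error 0.12). This closeness and the common sign depend on how replicates 2 and 3 are paired, as exposed 2 (136) was above unexposed 3 (132). The pairing of these replicates was not borne out by the signals, as described under processing. Both pair 1 signals lay below the foreign control medians of those arrays. Obp46a, a Plus-C gene, had 1117, 300.4 and 305 in exposed pools and 1305, 320 and 317 in unexposed pools, and a mean log2 ratio of -0.12 (standard error 0.12). For both genes the exposed and unexposed ranges overlapped.

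**Figure D2:**
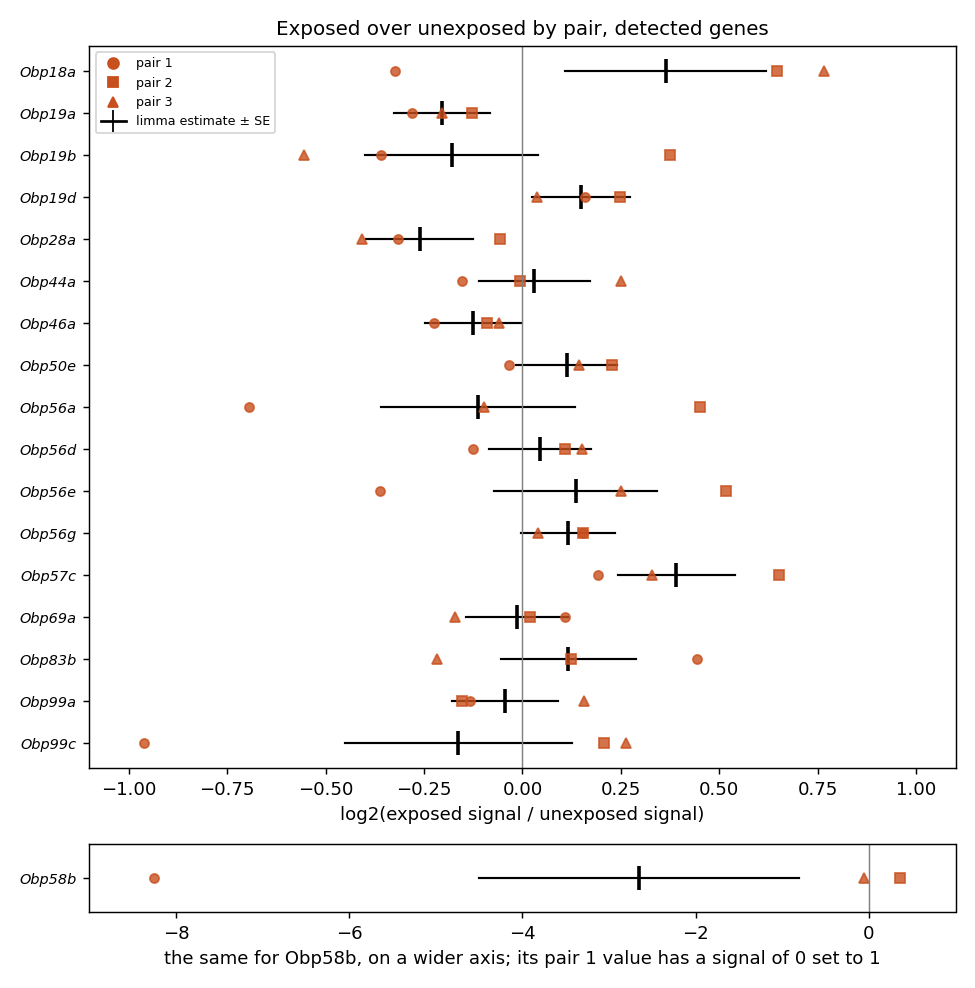
Log2 ratio of exposed over unexposed signal by pair (symbols) with the limma estimate and its standard error (bar and line) for the 18 detected genes; Obp58b has a panel of its own. All 3 pairs lie right of 0 for Obp19d, Obp56g and Obp57c and left of 0 for Obp19a, Obp28a and Obp46a, and pair 1 lies apart for Obp18a and Obp99c.

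In some genes pair 1 ran against pairs 2 and 3. Obp18a had signals of 232, 750.2 and 800.3 in exposed pools and 290, 479 and 471 in unexposed pools. Both exposed arrays of replicates 2 and 3 were thus the highest of the 6, by 1.57-fold and 1.70-fold over their partners, while exposed 1 was the lowest. Its mean log2 ratio was 0.36 (standard error 0.26) over 3 pairs and 0.71 without replicate 1, when its unadjusted p was 0.00573 (limma). Without replicate 1 the members at an unadjusted p under 0.05 (limma) were Obp18a and Obp57c, both higher, and neither passed the adjustment. Over all 8251 probe sets tested, 128 (1.55%) were then higher and 173 lower by that measure.

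Obp99c, a Minus-C gene, had 2860, 6413 and 6372 in exposed pools and 5563, 5551 and 5307 in unexposed pools. Exposed 2 and 3 were the highest of the 6 arrays and exposed 1 was the lowest. The log2 ratios were -0.96, 0.21 and 0.26, and the mean of -0.16 (standard error 0.29) became 0.24 without replicate 1. Obp56a was also lowest in exposed 1, with 84.2, 408 and 333 in exposed pools and 136, 298 and 356 in unexposed pools. Its ratios were -0.69, 0.45 and -0.10, spread about evenly with no pair apart. Obp56e, which has been found in seminal fluid, had 31.3, 242 and 183 in exposed pools and 40.2, 169 and 154 in unexposed pools. Its ratio was below 0 in pair 1 (-0.36) and above 0 in pairs 2 and 3 (0.52 and 0.25), and both pair 1 signals lay below the foreign control medians.

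Obp58b, a Plus-C gene, was listed at 0 on exposed 1. Its other exposed signals were 355 and 324, and those of the unexposed pools were 305, 278 and 338. The single 0 gave a pair 1 log2 ratio of -8.25 after signals under 1 were set to 1, and it alone made the mean -2.65 (standard error 1.85). Without replicate 1 the mean was 0.15, and the 2 remaining exposed arrays overlapped the unexposed ones. The neighbouring genes Obp58c and Obp58d were not at 0 on exposed 1, with signals of 122 and 93.2.

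Over pairs 2 and 3 alone, 8 of the 18 detected members were higher in both exposed pools and 3 were lower in both, against 21.5% and 24.8% of all probe sets tested. These pairs were set apart after the data were seen. The 8 higher genes were Obp18a, Obp19d, Obp50e, Obp56d, Obp56e, Obp56g, Obp57c and Obp99c. By pair, 5, 13 and 10 of the 18 members were higher in pairs 1 to 3, or 27.8%, 72.2% and 55.6%. Over all probe sets tested these shares were 25.2%, 36.8% and 59.9%. The members' median log2 ratios were -0.19, 0.18 and 0.04 in pairs 1 to 3, against -0.21, -0.08 and 0.05 over all probe sets, so that pair 2 was where the family's median lay farthest from that of the array.

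The remaining detected genes moved little or in mixed directions. Obp44a, a Minus-C gene expressed in glia of the nervous system, had 3884, 4025 and 4725 in exposed pools and 4322, 4043 and 3975 in unexposed pools, and its ratios of -0.15, -0.01 and 0.25 averaged 0.03 (standard error 0.14). Obp56d, expressed in antennae and taste organs, had 3501, 4385 and 4596 in exposed pools and 3819, 4070 and 4138 in unexposed pools, with a mean of 0.04 (standard error 0.13). The 95% intervals on the log2 scale were -0.34 to 0.40 for Obp44a and -0.30 to 0.39 for Obp56d. Obp99a had 859, 1301 and 1521 in exposed pools and 942, 1447 and 1366 in unexposed pools, with a mean of -0.04 (standard error 0.13).

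Obp83b (OS-E), an OBP of the pheromone-sensing trichoid sensilla of the antenna, had 294, 1053 and 824 in exposed pools and 216, 966 and 958 in unexposed pools. Its ratios of 0.44, 0.12 and -0.22 had no common sign. Obp69a (Pbprp1), an antennal OBP that has been linked to social responsiveness, had 58.4, 269 and 213 in exposed pools and 54.1, 265 and 239 in unexposed pools. Its ratios were 0.11, 0.02 and -0.17, with a mean of -0.01 (standard error 0.13), and both pair 1 signals lay below the foreign control medians. Obp19b had 78.9, 431 and 291 in exposed pools and 101, 333 and 428 in unexposed pools, and its ratios of -0.36, 0.37 and -0.56 included opposite signs in pairs 2 and 3. Obp50e, a Plus-C gene, had 1015, 336 and 276 in exposed pools and 1039, 287 and 249.5 in unexposed pools, with ratios of -0.03, 0.23 and 0.14.

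The 17 genes below the threshold were lush, Obp8a, Obp19c, Obp47a, Obp47b, Obp56c, Obp56h, Obp58c, Obp58d, Obp59a, Obp73a, Obp83cd, Obp83ef, Obp84a, Obp85a, Obp93a and Obp99d. Of these, 10 reached 100 on no array. The other 7 reached it on 1 or 2 arrays, and these were replicate 1 arrays in all 7 (Obp47a, Obp47b, Obp58c, Obp58d, Obp73a, Obp85a and Obp93a). On replicate 1 arrays 15 (exposed) and 13 (unexposed) of the 35 members had a signal below the foreign control median, against 4 to 6 on each of the others. In the fit with no filter none of the 17 had an unadjusted p under 0.05.

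lush encodes the OBP needed for trichoid neurons to respond to the male pheromone cis-vaccenyl acetate. Its signals were 43.8, 98.99 and 82.4 in exposed pools and 23.3, 93.0 and 84.0 in unexposed pools. In replicates 2 and 3 these lay near the threshold and about level between the treatments, with log2 ratios of 0.09 and -0.03. In pair 1 the ratio was 0.91, between signals below the foreign control medians. Obp56h, whose knockdown in males changes courtship, had 0, 48.9 and 36.2 in exposed pools and 2.80, 27.7 and 35.2 in unexposed pools. Its ratios of -1.49, 0.82 and 0.04 had no common sign. Obp59a, expressed in the antenna and required for humidity sensing, was the only undetected gene with the lower signal in its exposed pool in all 3 pairs, at 4.83, 44.2 and 27.2 in exposed pools and 16.6, 53.4 and 36.6 in unexposed pools. Its mean log2 ratio was -0.83 (standard error 0.35, adjusted p = 0.9203, limma on unfiltered probe sets), and both pair 1 signals lay below the foreign control medians. Among detected probe sets 18.4% were lower in all 3 pairs, and the share among undetected ones was not computed. The order of the pools in Obp59a is therefore not read as a result.

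Obp8a, a Minus-C gene whose protein is found in seminal fluid, had 27.6, 87.9 and 87.8 in exposed pools and 25.2, 94.3 and 75.1 in unexposed pools, with a mean log2 ratio of 0.09 (standard error 0.15). Obp93a, the other gene just below the threshold, had 98.7, 58.9 and 57.6 in exposed pools and 118, 56.01 and 87.4 in unexposed pools, with a mean of -0.26 (standard error 0.19). In both genes the exposed and unexposed ranges overlapped. The antennal gene Obp84a (Pbprp4) stayed between 12.2 and 45.6 on the 6 arrays. Obp83cd, which encodes a double-domain (dimer) OBP, had 39.0 and 37.7 on exposed 2 and 3 and 24.1 and 24.0 on unexposed 2 and 3, but 0 and 1.13 on exposed 1 and unexposed 1. The other dimer gene, Obp83ef, stayed between 32.2 and 42.3 on all arrays. Obp99d had 10.1 to 28.7, and Obp19c had 13.2 to 35.6. Obp47a was listed at 0 on 3 of the 4 arrays of replicates 2 and 3, with 33.3 on exposed 3, and had 94.3 on exposed 1 and 152 on unexposed 1.

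**Figure D3:**
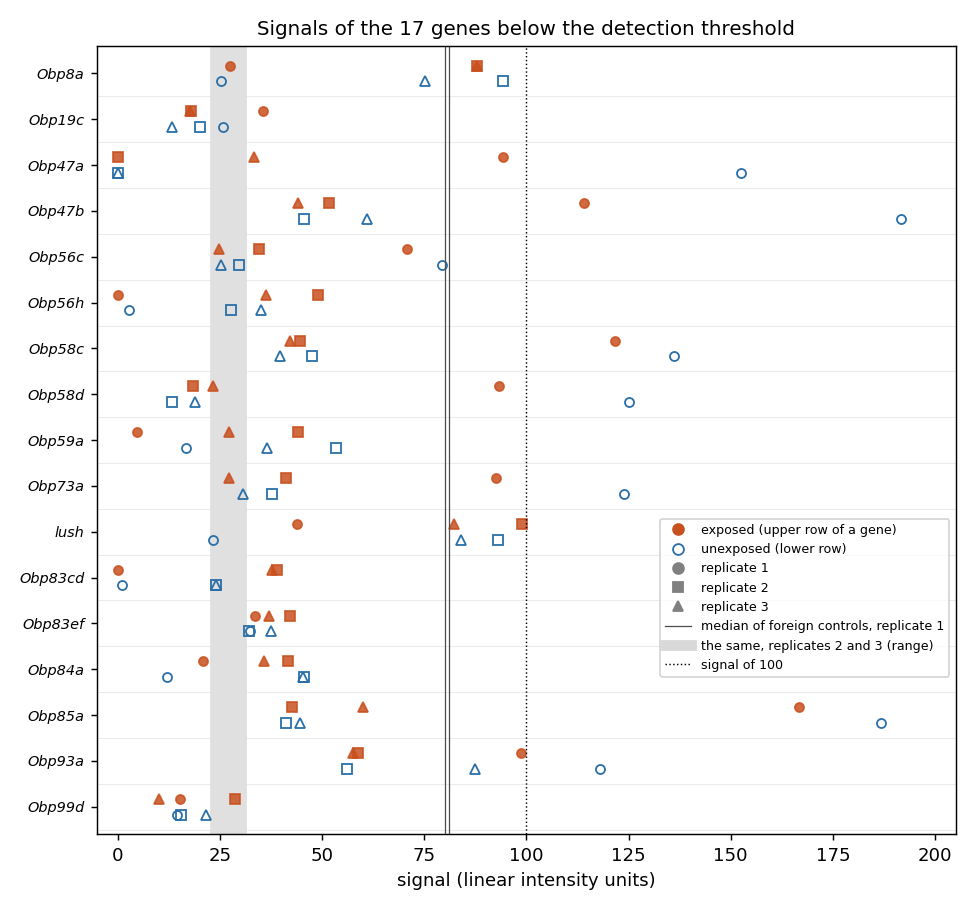
Signals of the 17 genes below the detection threshold, with exposed arrays in the upper row of each gene and unexposed arrays in the lower row. The grey lines (80.1 and 81.0) and the grey band (22.9 to 31.3) give the foreign control medians of replicate 1 and of the other arrays; every point past 100 belongs to replicate 1, and lush in replicates 2 and 3 lies between 82.4 and 98.99.

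The replicate 1 arrays lay outside the range of the other 4 for most OBP genes. Of the 18 detected members, both replicate 1 arrays lay below the other 4 for 12 and above them for 2, against 57.2% and 28% of all probe sets tested. Of the 17 undetected members they lay below for 6 and above for 9, against 27.6% and 48.6% of the 5715 undetected probe sets. The 2 of 18 detected members above the others are a smaller share than the 28% of the array, and the other shares were near those of the array. These counts were not tested and are not read as a result about OBPs. The groups below are given as a description. The Plus-C, Minus-C, dimer and neighbour groups were written after these values were seen, and none of the groups was tested. Among 5 Minus-C members the replicate 1 arrays lay below the others for 2 and above for 0, and among 2 dimer members below for 1 and above for 0.

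Among the 8 Plus-C members, both replicate 1 arrays lay above all others for 7: Obp46a, Obp47b, Obp50e, Obp58c, Obp58d, Obp85a and Obp93a. Obp58b was the exception. All of the 7 but Obp46a and Obp50e were undetected. On the array both replicate 1 arrays lay above the others for 28% of detected probe sets and 48.6% of undetected ones. The order was not tested by group. The log2 signal of replicate 1 exceeded that of replicates 2 and 3 by 1.88 for exposed and 2.04 for unexposed arrays in Obp46a, and by 1.74 for exposed and 1.96 for unexposed arrays in Obp50e. These are the 2 Plus-C genes of the group that were detected and higher on replicate 1. Obp85a had 167 and 187 on exposed 1 and unexposed 1, against 41.1 to 59.9 on the other 4 arrays. Obp58c had 122 and 136, against 39.8 to 47.4, and Obp58d had 93.2 and 125, against 13.3 to 23.4. Obp47b had 114 and 192, against 44.1 to 61.0. The 4 genes outside this group with the same order were Obp19c, Obp47a, Obp56c and Obp73a, all undetected. The median of the foreign controls was higher on the replicate 1 arrays too, as were the measured eggshell genes, Cp38 among them, except Vm32E. Vm32E had 1743 on exposed 1 but 1027 on unexposed 1, below the 1186 of unexposed 2.

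In most antennal, taste and seminal fluid OBPs the replicate 1 arrays were the lower ones. On the array this held for 57.2% of detected probe sets but only 27.6% of undetected ones. The undetected members of these groups (lush, Obp8a, Obp56h, Obp59a and Obp84a) all had this order, which was not tested. Both replicate 1 arrays lay below all others for 6 of 7 antennal members (lush, Obp19a, Obp59a, Obp69a, Obp83b and Obp84a), the exception being Obp28a. The same held for 5 of 5 taste members (Obp19b, Obp19d, Obp56d, Obp56h and Obp57c) and for 3 of 3 seminal fluid members (Obp8a, Obp56e and Obp56g). The size differed between genes. Obp83b was 3.76-fold lower on replicate 1 (geometric means), whereas Obp56d was 1.17-fold and Obp56g 1.11-fold lower. The RNA integrity ratios given above moved with replicate 1 as well, mostly on exposed 1.

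**Figure D4:**
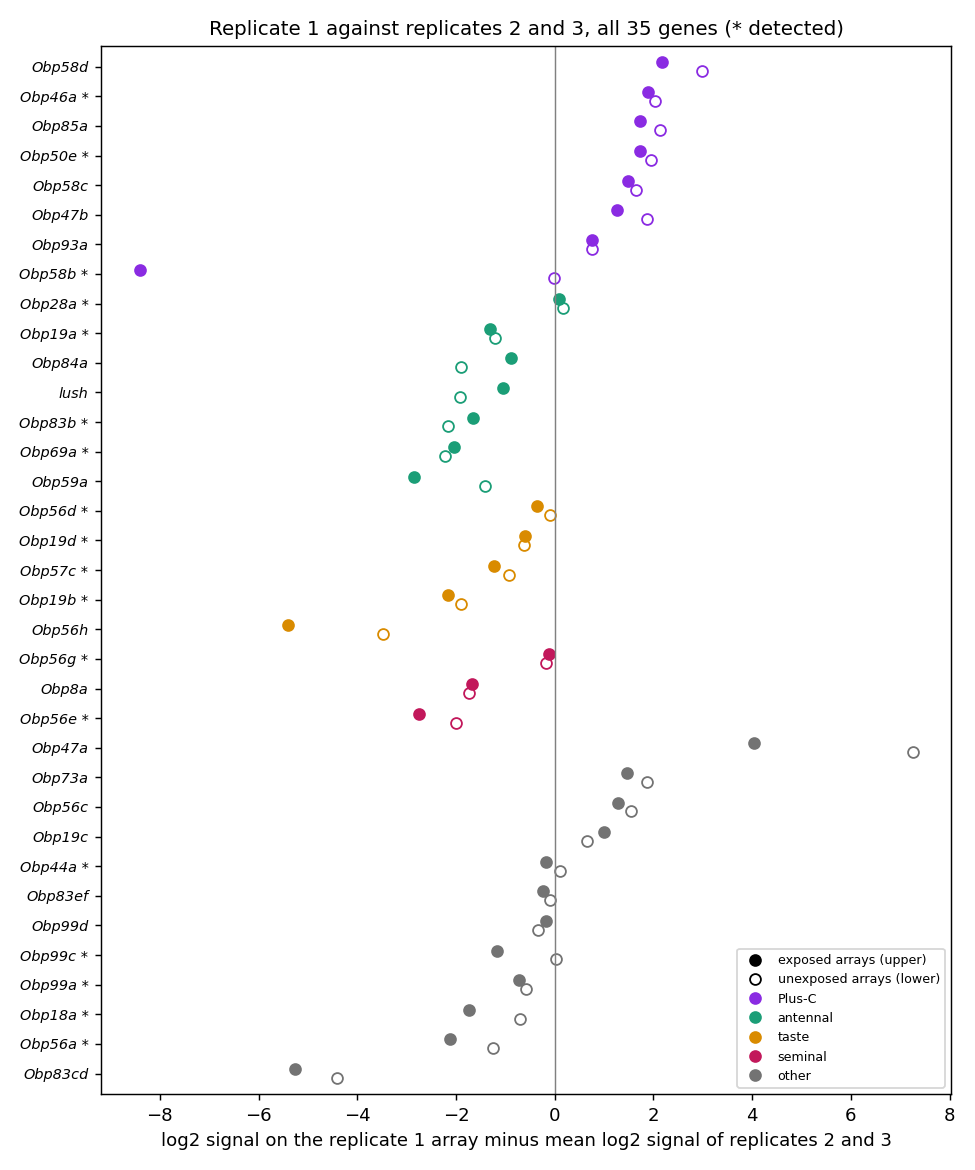
Log2 signal of the replicate 1 array minus the mean log2 signal of replicates 2 and 3 for exposed (filled) and unexposed (open) arrays, for all 35 genes grouped by class or site of expression; signals under 1 were set to 1, which sets the size for Obp47a, Obp56h, Obp58b and Obp83cd. All Plus-C genes but Obp58b lie right of 0, and the antennal, taste and seminal fluid genes lie left of it except Obp28a.

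Replicates 2 and 3 of one treatment differed as follows. Among the 18 detected members the median absolute log2 difference between them was 0.23 in exposed and 0.12 in unexposed pools, against 0.14 and 0.15 over all probe sets tested. The members were thus farther apart than the array between the exposed pools and closer between the unexposed pools. The widest differences were in Obp19b, which was lower in exposed 3 than in exposed 2 by 0.57 on the log2 scale and higher in unexposed 3 than in unexposed 2 by 0.36. Signs across pairs were also counted among chromosomal neighbours, where no member passed the adjusted threshold and nothing was tested by cluster. In the Obp19a to Obp19d cluster on X, Obp19a was lower in all 3 exposed pools, Obp19d was higher in all 3, and Obp19b and Obp19c were mixed. Of the 6 members of the Obp56 cluster on 2R, Obp56g was higher in all 3 pairs and none was lower in all 3. None of the 3 members of the Obp99 cluster on 3R had one sign in all pairs, and of Obp58b, Obp58c, Obp58d and Obp59a on 2R only the undetected Obp59a did.

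Other carriers and receptors of the chemosensory system were also without a call. Of 20 genes with a probe set of their own from a list of chemosensory proteins, CheA and CheB genes and Npc2 genes (lipid carriers related to an intracellular sterol transporter), 12 were detected and none had an unadjusted p under 0.05. Their median log2 ratio was 0.11, against -0.09 over all probe sets tested. Of these 12 Npc2c and Npc2d were higher on the exposed side in every pair, against 6.23% of all probe sets tested. EbpIII, an ejaculatory bulb protein, had 5096, 6751 and 7047 in exposed and 5220, 5735 and 6632 in unexposed pools, a mean log2 ratio of 0.10 (standard error 0.13). The mean log2 ratios of Npc2a, Npc2g and Npc2h were 0.02, 0.13 and 0.16, each within its standard error of 0. The mean log2 ratio lay beyond its standard error for a10 (-0.31, standard error 0.17), Npc2d (0.25, standard error 0.13), CheA75a (0.23, standard error 0.21) and Npc2c (0.23, standard error 0.12). The adjusted p from limma was 0.905 for each of them. The gene a10 encodes an antennal chemosensory protein, and it had 318, 854 and 696 in exposed and 316, 1068 and 1071 in unexposed pools. Its exposed signals were the lower ones in pairs 2 and 3 only. The genes a10, Npc2d, CheA75a and Npc2c were added after their values were seen. Of 17 receptor, membrane and odorant-degrading enzyme genes, 4 were detected (Snmp2, Gr68a, Jhedup and Pino). None of these 4 had an unadjusted p under 0.05, and their median log2 ratio was 0.05.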

How the data were processed

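Per the labels, total RNA from 3 exposed and 3 unexposed pools was hybridized to 6 one-colour arrays. The authors deposited 1 linear intensity per probe set and array, and the submitters' processing notes name GCOS 1.2. The methods describe GCOS and dChip summaries, and which one the table holds is not given in the sources used here. Tests left out the 44 control probe sets. Of the 14010 probe sets, 12443 had 1 gene in the platform annotation after symbols were brought to RefSeq Release 6 by Entrez ID, 327 had several and 1240 had none. Array positions and gene table follow different builds, so only chromosome arms are given.

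Signals under 1 were set to 1 and log2 was taken without further normalization. Probe sets with at least 100 on at least 3 arrays were fitted by limma 3.58.1 (R 4.3.3; lmFit, eBayes), blocking on replicate, as the study's methods pair the groups. As a check of the pairing, the departures from the group mean of exposed and unexposed arrays 1, 2 and 3 had correlations of 0.84, 0.76 and 0.78, but differences between replicates 3 and 2 of the 2 treatments correlated at -0.33, so pairing of these 2 is not borne out by the signals. The code was tested on simulated arrays. All 35 members are named, with every detected member's 6 signals. Members and gene lists were chosen with earlier results of these data known. The number of arrays limits the precision.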

Additional observations from a re-analysis of the deposited data

How the results depend on the processing

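No member passed an adjusted p under 0.05 in any of 10 alternative fits (limma). The 206 of 8251 probe sets at an unadjusted p under 0.05 became 10 with no replicate block. The count lay between 121 and 301 without 1 replicate. With no filter it was 373, but of 13966 probe sets tested. Without replicate 1 an adjusted p under 0.05 was reached by 2 probe sets, neither a member. Of these 206, 31 were higher and 175 lower, against 146 and 120 after quantile normalization and 127 and 102 after median centring. These scalings moved the median log2 ratio of all probe sets from -0.09 to 0.00 and 0.02, and that of the members from 0.01 to 0.09 and 0.11. The number of members detected was between 12 (100 on all 6 arrays) and 25 (100 on any array). The count of detected members higher in every pair, 3, became 8 without replicate 1, and that of members lower in every pair stayed at 3. Asking for fewer pairs can only keep or raise such a count. Over all probe sets tested the shares rose from 6.23% to 21.5% for higher and from 18.4% to 24.8% for lower.

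Under the alternatives 16 log2 ratios of detected members changed sign, and they belong to 10 genes. The settings with no replicate block, no filter or a variance trend leave a log2 ratio as it is and could not change its sign. Without 1 replicate the ratios ran from -0.46 to 0.0073 for Obp19b, -0.080 to 0.12 for Obp44a, -0.40 to 0.18 for Obp56a, -0.0089 to 0.13 for Obp56d, -0.056 to 0.38 for Obp56e, -4.16 to 0.15 for Obp58b, -0.076 to 0.063 for Obp69a, -0.047 to 0.28 for Obp83b, -0.14 to 0.011 for Obp99a and -0.38 to 0.24 for Obp99c. After quantile normalization Obp56a had 0.00087, Obp69a 0.092 and Obp99a 0.012, and after median centring Obp69a had 0.092 and Obp99a 0.063. The cause was not tested. Of the 18 detected members 5 on exposed 1 and 3 on unexposed 1 had signals below the foreign control median.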

Other observations

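Os-C, an antennal gene named for its expression in olfactory sensilla, falls outside the symbol rule and was chosen after its values were seen. It had 185, 425 and 467 in exposed pools and 146, 542 and 453 in unexposed pools, with log2 ratios of 0.35, -0.35 and 0.04. The probe set shared by Obp57d and the cuticle protein gene Cpr57A had 35.8, 240.5 and 257 in exposed pools and 68.1, 142 and 222 in unexposed pools, with log2 ratios of -0.93, 0.76 and 0.21. The probe set shared by Obp50b and Obp50c had 82.5, 78.1 and 96.8 in exposed pools and 110.1, 89.9 and 77.6 in unexposed pools. It was thus not higher on both replicate 1 arrays than on all others, unlike the probe set of Obp50e.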
